A study of Homo sapiens with 6 samples.

Results

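The zinc-finger cluster at 19q13.12 is a run of Krüppel-type zinc-finger genes on the long arm of chromosome 19, with the long non-coding RNA gene LINC00665 lying among them. It was described here through a list of 36 named genes, found by Ensembl identifier in a count table of 60483 genes and followed in their order along the chromosome. In GENCODE 44 coordinates (GRCh38) the members reached from chr19:34677639 to chr19:37817300, a span of 3.14 Mb, with 15 members on the + strand and 21 on the − strand. A stretch of 1.22 Mb without members separated the first 5, from ZNF302 to ZNF792, from the other 31, from ZNF565 to ZNF573. GENCODE listed 34 members as protein coding. The RNA came from HAP1 (C631), a near-haploid human line that the labels give as chronic myelogenous leukemia, and from HELLS KO, a purchased HAP1 line with an insertion of a single base pair in exon 3 of HELLS. Each genotype had 3 libraries grown without any treatment ("Normal Growth"), and replicate 3 of both carried a batch label. Because 1 knockout line was set against 1 parental line, an effect of HELLS and any other difference of that line cannot be told apart. The p-values measure the spread between replicate samples of these lines only.

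Most genes of such clusters encode proteins that bind DNA through arrays of C2H2 zinc fingers and carry a KRAB domain. KRAB domains recruit TRIM28, which brings the histone methyltransferase SETDB1 and HP1 proteins and silences transposable elements and other targets. The clusters grew by tandem duplication, and the silencing machinery also marks the zinc-finger genes themselves. HELLS is a chromatin remodeller of the SNF2 family that works with CDCA7 and assists DNA methylation in compacted chromatin, and its loss causes a form of ICF syndrome. Many zinc-finger promoters of chromosome 19 are rich in CpG, the dinucleotide that DNA methyltransferases act on.

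The sequences below are shown because the change in HELLS KO was carried by 5 members, which start in 4 short regions. They are the 250 bases before the RefSeq start (assembly GRCh38.p14) of LINC00665, ZFP82 and ZNF585B, with ZNF585A as the unchanged relative of ZNF585B. For ZNF829 and ZNF568, which start back to back, the 40 bases between their starts are shown. All run 5′ to 3′ on the strand named, and capitals mark CpG dinucleotides. They are sequences of the reference, not of these cells.
LINC00665, chr19:36331754-36332003, − strand: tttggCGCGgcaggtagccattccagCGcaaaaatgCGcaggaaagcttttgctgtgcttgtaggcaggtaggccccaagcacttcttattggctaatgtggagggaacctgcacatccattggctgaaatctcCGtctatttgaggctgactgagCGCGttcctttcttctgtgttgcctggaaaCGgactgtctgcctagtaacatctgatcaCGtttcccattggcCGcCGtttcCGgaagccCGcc
ZFP82, chr19:36418645-36418894, − strand: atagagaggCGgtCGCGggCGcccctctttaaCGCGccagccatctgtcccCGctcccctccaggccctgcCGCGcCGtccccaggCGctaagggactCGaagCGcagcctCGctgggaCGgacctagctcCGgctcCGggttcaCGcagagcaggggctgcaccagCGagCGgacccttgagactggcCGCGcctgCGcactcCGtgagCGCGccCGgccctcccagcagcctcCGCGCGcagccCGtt
ZNF585B, chr19:37210537-37210786, − strand: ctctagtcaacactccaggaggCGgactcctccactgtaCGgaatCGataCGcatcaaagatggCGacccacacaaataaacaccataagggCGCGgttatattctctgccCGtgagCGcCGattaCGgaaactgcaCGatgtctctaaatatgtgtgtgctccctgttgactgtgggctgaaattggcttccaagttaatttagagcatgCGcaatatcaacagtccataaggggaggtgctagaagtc
ZNF585A, chr19:37172696-37172945, − strand: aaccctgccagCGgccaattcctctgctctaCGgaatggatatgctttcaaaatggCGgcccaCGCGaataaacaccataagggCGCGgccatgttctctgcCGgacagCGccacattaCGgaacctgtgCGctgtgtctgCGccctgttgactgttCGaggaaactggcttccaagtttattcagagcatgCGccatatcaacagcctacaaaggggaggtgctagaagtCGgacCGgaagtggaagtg
between the starts of ZNF829 and ZNF568, chr19:36916292-36916331, + strand: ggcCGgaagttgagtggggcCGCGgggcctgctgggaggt

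In HELLS KO, LINC00665, ZFP82, ZNF829, ZNF568 and ZNF585B rose from 0 to 0.129 FPKM in HAP1, as group means, to between 0.809 and 7.77 FPKM. The other 30 tested members were not called, and their libraries overlapped between the genotypes. FPKM is the fragment count scaled for gene length and library size, so it can be compared between genes. A gene was called when edgeR's quasi-likelihood test on the deposited counts of all genes gave a Benjamini-Hochberg adjusted p under 0.05 and the log2 fold change (log2FC, HELLS KO over HAP1, with its standard error, SE) was at least 1 in size. Of the 36 members, 35 passed the filter on low counts, and 5 were called higher (14.29% of those tested) and 0 lower. No member was lower at an unadjusted p under 0.05, and DESeq2 also called 5 higher and 0 lower. Among all 17925 genes tested, 1.5% were called higher and 0.72% lower. All 5 called members passed the filter (0.686 CPM in 3 libraries, CPM being counts adjusted to a common library size) through the HELLS KO libraries only. Their HAP1 libraries alone would not have had them tested, so the filter favoured a difference, and the share is given as a description. ZNF585B came nearest to the line in HAP1, with 0.914, 1.38 and 0.667 CPM. With no filter, the same 5 members were called. Of the tested members, 5 had every HELLS KO library above every HAP1 library and 0 the reverse, and among all tested genes these shares were 4.99% and 5.09%.

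**Figure D1:**
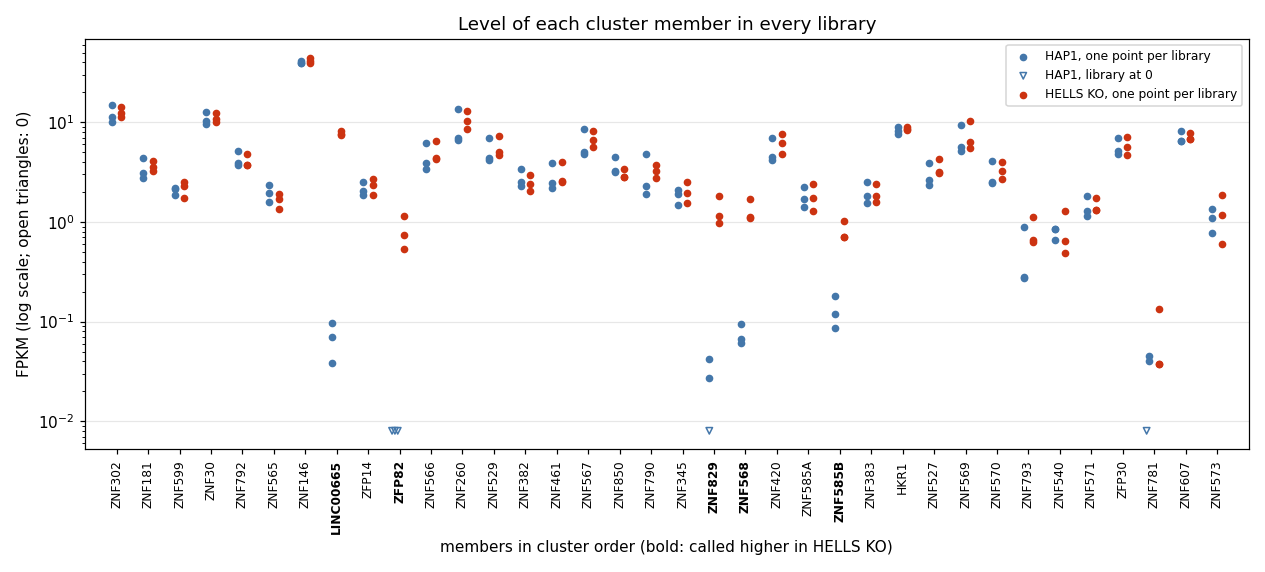
FPKM of the 36 members in every library, on a log axis and in cluster order, with blue points for HAP1, red points for HELLS KO and open triangles for libraries at 0. The 5 called members, in bold, lie at or below 0.182 FPKM in every HAP1 library and between 0.536 and 8.19 FPKM in HELLS KO, and the points of the genotypes overlap at every other member.

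LINC00665 (chr19:36259540-36331770, − strand), a long non-coding RNA studied mainly in tumours, was counted 4, 7 and 17 times in the libraries of HAP1 against 794, 807 and 1453 times in HELLS KO. Every HELLS KO library was far above every HAP1 library, and the 3 HELLS KO libraries lay close together, at 56.9 ± 2.58 CPM (SD, n = 3) against 0.50 ± 0.21 CPM (SD, n = 3) in HAP1. The log2FC was 6.74 (SE 0.28, adjusted p = 1.9e-04), and the ratio of the summed counts, scaled for library size, was 107. Within the labelled batch alone (replicate 3) the ratio was 84.2, and in replicates 1 and 2 alone the log2FC was 7.09 (edgeR, adjusted p = 0.0011). LINC00665 went from rank 33 of the 36 members by mean FPKM in HAP1 to rank 6 in HELLS KO, at 7.77 FPKM, close to HKR1 at 8.63 and ZNF569 at 7.43. LINC00665 sits directly between ZNF146 and ZFP14 in the member order. An Ensembl lncRNA on the opposite strand, ENSG00000267053 (chr19:36257662-36321276), overlaps 5.4% of its exon bases and had 0 counts in every HAP1 library against 95, 85 and 175 in HELLS KO (edgeR, adjusted p = 0.0023). Whether counting used the strand is not given in the sources used here.

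ZFP82 (chr19:36383120-36418644, − strand), which encodes a KRAB zinc-finger protein, had 0 counts in all 3 libraries of HAP1 against 82, 59 and 213 counts in HELLS KO. The genotypes did not overlap, and the HELLS KO libraries spread from 4.13 to 8.75 CPM. Against a floor of 3 counts over the HAP1 libraries, ZFP82 was at least 115-fold higher in HELLS KO (adjusted p = 0.0064, edgeR). Its fitted log2FC of 9.77 (SE 0.82) depends on the prior count and is no measure of size. Its neighbour ZFP14, a KRAB zinc-finger gene on the same strand whose start lies between those of LINC00665 and ZFP82, 47.4 kb from the first and 39.4 kb from the second, was counted 228, 201 and 485 times in HAP1 against 213, 270 and 515 times in HELLS KO. Those libraries overlapped, with a log2FC of 0.10 (SE 0.21).

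ZNF829 (chr19:36888124-36916291, − strand) and ZNF568 (chr19:36916316-37005037, + strand) are KRAB zinc-finger genes that start 25 bases apart in GENCODE and run away from each other. The mouse counterpart of ZNF568 is known as a repressor of a placental transcript of Igf2. ZNF829 was counted 3, 0 and 8 times in HAP1 against 132, 112 and 347 times in HELLS KO, a log2FC of 5.63 (SE 0.62, adjusted p = 0.0048, edgeR). ZNF568 was counted 9, 8 and 22 times in HAP1 against 158, 153 and 399 times in HELLS KO, a log2FC of 4.11 (SE 0.32, adjusted p = 0.0014, edgeR). In both genes all HELLS KO libraries were above all HAP1 libraries, and replicate 3 was the highest of the HELLS KO libraries. Both reached 1.32 FPKM in HELLS KO, from 0.0230 FPKM for ZNF829 and 0.0742 FPKM for ZNF568. The ratio of summed counts was 52.5 for ZNF829 and 17.8 for ZNF568, and within replicate 3 it was 42.7 and 17.9. In replicates 1 and 2 alone their log2FC values were 6.17 and 4.11.

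ZNF585B (chr19:37181579-37218153, − strand), a zinc-finger gene with a close relative next to it, was counted 13, 19 and 16 times in HAP1 against 78, 78 and 191 times in HELLS KO. It was the only called member with more than 10 counts in every HAP1 library, and its genotypes still did not overlap. The log2FC was 2.68 (SE 0.36, adjusted p = 0.011, edgeR), and the ratio of summed counts was 7.06, against 11.8 within replicate 3. In replicates 1 and 2 alone the log2FC was 2.21 (edgeR, adjusted p = 0.026). The call was lost when either replicate 1 of HAP1 or replicate 2 of HELLS KO was left out (adjusted p = 0.055 each, edgeR). The relative, ZNF585A, was counted 261, 213 and 587 times in HAP1 against 205, 274 and 641 times in HELLS KO, with overlapping libraries and a log2FC of 0.03 (SE 0.28).

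The 5 called members added up to between 2.04 and 2.63 CPM in the HAP1 libraries and between 84.6 and 107 CPM in HELLS KO. In bulk RNA, more cells with a transcript and more transcript per cell cannot be told apart. The other 30 tested members added up to 788, 765 and 1094 CPM in HAP1 and 812, 915 and 1077 CPM in HELLS KO, so the summed level of the cluster outside the called members overlapped between the genotypes.

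The called members did not form 1 unbroken block. They lay between chr19:36259540 and chr19:37218153, a stretch of 959 kb that holds 17 members in positions 8 to 24 of the order, and 12 of those 17 were not called. ZNF146, just before LINC00665, was counted 2357, 2288 and 4199 times in HAP1 against 2399, 2721 and 4207 times in HELLS KO (log2FC 0.06, SE 0.10). ZNF566, just after ZFP82, had 361, 307 and 985 counts against 417, 405 and 1036 (log2FC 0.16, SE 0.28). ZNF345, before ZNF829, and ZNF420, after ZNF568, had log2FC values of 0.15 (SE 0.25) and 0.25 (SE 0.27). ZNF383, after ZNF585B, was counted 186, 213 and 524 times in HAP1 against 197, 223 and 499 times in HELLS KO, a log2FC of -0.02 (SE 0.26). At all 5 of these bordering genes the libraries of the genotypes overlapped.

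**Figure D2:**
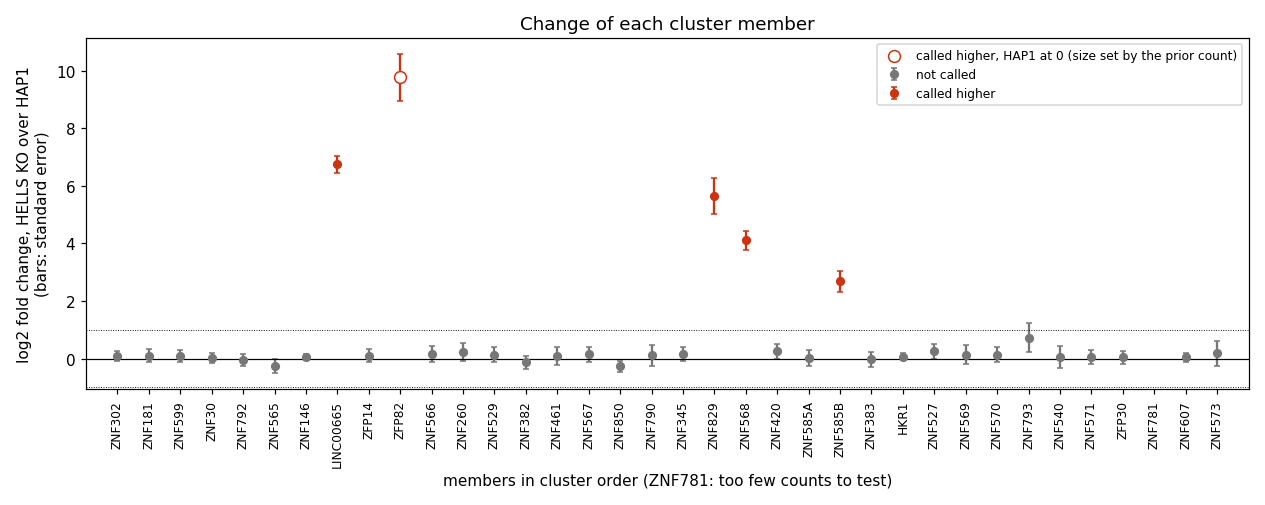
Log2 fold change of HELLS KO over HAP1 for the 35 tested members in cluster order, with standard errors as bars, the called members in red, and dotted lines at a log2FC of 1 and -1. The 5 called members stand at 2.68 and above in 4 separate places, with ZFP82 (open circle, HAP1 at 0) of no defined size, and the grey members lie between -0.27 and 0.72.

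Opposed starts that lie close together offered a comparison within the cluster. By the RefSeq start nearest to the GENCODE start of each member, 4 pairs on opposite strands start within 1000 bases of each other. Other RefSeq starts add further close pairs, none of them called. ZNF565 (chr19:36215084) and ZNF146 (chr19:36215106) had log2FC values of -0.26 and 0.06. ZNF461 (chr19:36666837) and ZNF567 (chr19:36666934) had 0.09 and 0.15. Within the 4 pairs, the distances are between the RefSeq starts nearest to the GENCODE starts. ZNF829 and ZNF568, 41 bases apart, were both called. ZNF529 and ZNF382, the latter described as silenced by promoter methylation in tumours, start 56 bases apart and had log2FC values of 0.14 and -0.13. ZNF569 and ZNF570, 328 bases apart, had 0.14 and 0.13, and ZNF790 and ZNF345, 427 bases apart and overlapping at their starts, had 0.11 and 0.15. Another RefSeq start of ZNF345 (chr19:36850876) lies closer to that of ZNF790 (chr19:36850792), and from these starts the genes run apart. ZNF585B and ZNF383 start 227 bases apart in GENCODE but 7.68 kb apart by RefSeq, so their distance depends on the annotation.

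The 30 tested members that were not called ranged from a log2FC of -0.27 (ZNF850) to 0.72 (ZNF793), with standard errors from 0.10 to 0.51, 25 of them above 0 and 5 below. Their smallest unadjusted p was 0.20 (edgeR, no block), and at all 30 the libraries of the genotypes overlapped. That overlap sets all libraries against each other, and replicate 3 was the highest in both genotypes at 28 of the 30. Overlap therefore does not show that same-numbered libraries were alike. Their median log2FC was 0.09, against 0.10 over all 35 tested members and 0.01 over all 17925 genes. ZNF793, a KRAB zinc-finger gene, was counted 48, 46 and 262 times in HAP1 against 112, 115 and 331 times in HELLS KO. HAP1 replicate 3 alone was above HELLS KO replicates 1 and 2 of this gene. By replicate number, HELLS KO was the higher each time, with 7.70, 8.05 and 13.6 CPM against 3.38, 3.35 and 10.9 in HAP1. In replicates 1 and 2 alone ZNF793 had a log2FC of 1.21 and was called (edgeR, adjusted p = 0.042). It was not called with the replicate number as a block (log2FC 0.85, adjusted p = 0.11, edgeR). Nor was it called with a batch term (log2FC 0.84, adjusted p = 0.083, edgeR). Leaving ZNF793 aside, the highest log2FC among the uncalled members was 0.25 (ZNF420).

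By FPKM the uncalled members covered a wide range that was alike in both genotypes, from 0.481 to 40.2 with a median of 3.22 in HAP1, and from 0.801 to 41.7 with a median of 3.42 in HELLS KO. ZNF146, whose protein consists of zinc fingers without a KRAB domain, was the highest at 40.2 ± 0.918 FPKM (SD, n = 3) in HAP1 and 41.7 ± 2.84 in HELLS KO. It was followed in HAP1 by ZNF302 at 12.0 FPKM, ZNF30 at 10.9, ZNF260 at 9.11 and HKR1, now also named ZNF875, at 8.30. ZNF302 and ZNF30 differed by less than their spread between libraries, and so did ZNF260 and HKR1. The same 5 genes led in HELLS KO, in the same order. At the low end, 6 members had a mean under 0.15 FPKM in HAP1, the 5 called members and ZNF781. ZNF781 was counted 0, 2 and 4 times in HAP1 against 2, 2 and 12 times in HELLS KO, too few to be tested, and was the lowest member in HELLS KO at 0.0699 FPKM. Between these 6 and the next member in HAP1, ZNF793 at 0.481 FPKM, lay a gap. In all, 28 members had a mean of at least 1 FPKM in HAP1 and 31 in HELLS KO.

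The libraries held between 13641237 and 24400187 counts, the 2 libraries of replicate 3 being the deepest. Replicate 3 was also the highest library by CPM in 28 of the 30 uncalled members in both genotypes, and in all 5 called members in HELLS KO. HELLS itself, the targeted gene, was counted 1444, 1488 and 3671 times in HAP1 against 1410, 1375 and 2802 times in HELLS KO (log2FC -0.24, SE 0.18, adjusted p = 1.0, edgeR), and a count per gene does not show a change of single bases. The authors report by Western blot that the knockout line lacks the HELLS protein. Of 15 myeloid and haematopoietic markers, 6 had at most 3 counts in every library, among them PTPRC and MPO, with SPI1 and HBG1 at 0 in every library, while KIT, at 27.0 CPM in HAP1 and 3.56 in HELLS KO, and CEBPA, at 19.3 and 21.9 CPM, were well counted. Their summed level was 46.3 to 56.6 CPM in HAP1 and 25.7 to 35.0 in HELLS KO, with KIT called lower among the 5 tested. Summed epithelial markers went from 102 to 146 CPM in HAP1 to 48.5 to 65.8 in HELLS KO. Of 7, 4 were tested, and EPCAM and KRT8 were called lower. KRT18, at 49.8 and 43.7 CPM (log2FC -0.19), and KRT19 (log2FC 0.59) were tested and not called. Summed fibroblast markers went from 146 to 157 CPM to 64.8 to 80.8. Of 8, 4 were tested, with 0 called by edgeR, 1 lower at an unadjusted p under 0.05 and 1 lower by DESeq2. Summed testis germ cell markers went from 41.6 to 51.2 CPM to 20.4 to 26.7. DAZL, at 41.7 CPM in HAP1 and 17.6 in HELLS KO, was called lower among 10. DAZL made up most of that sum, the median log2FC of the 3 testis markers tested was 0.31, and DESeq2 called 1 of the list higher (MAEL, counted 0 times in every HAP1 library against 2, 6 and 32 times) and 1 lower. The part of these marker differences in the result for the zinc-finger genes was not tested.

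The genes whose products silence zinc-finger genes or methylate DNA were measured in the same libraries. Of 22 KRAB corepressor and silencing factors, all were tested and 0 were called by edgeR, 0 at an unadjusted p under 0.05 and 0 by DESeq2, with log2FC values from -0.06 to 0.17. TRIM28 was at 305 CPM in HAP1 and 300.2 in HELLS KO, SETDB1 at 89.1 and 86.4, and ZNF274, a KRAB zinc-finger protein that brings SETDB1 to zinc-finger genes, at 54.4 and 57.4. Of 15 DNA methylation and ICF syndrome factors, 0 were called by edgeR, 0 at an unadjusted p under 0.05 and 0 by DESeq2, with log2FC values from -0.24 to 0.24. DNMT1, the maintenance methyltransferase, was at 348 and 341 CPM, DNMT3B, a de novo methyltransferase, at 93.7 and 87.3, and CDCA7 at 176 in both. These results for both lists are from fits without a replicate block, in which the spread includes that of replicate 3. Smaller differences between same-numbered libraries are therefore not excluded.

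The cluster was next set beside the other zinc-finger genes of chromosome 19. Of 227 such genes outside the list, all protein coding, 204 were tested, and 30 (14.71%) were called higher and 0 lower by edgeR. At an unadjusted p under 0.05 (edgeR) 43 were higher and 2 lower, and DESeq2 called 41 higher and 1 lower. Their median log2FC was 0.14. The share among the members, 14.29%, was near that of the other zinc-finger genes, so a share of this size was not particular to the cluster. The sets are not alike in kind, since the members called include LINC00665, which is no zinc-finger gene. At an unadjusted p under 0.05 (edgeR), 5 of the 35 tested members were higher. The upper quartile of log2FC was 0.20 in the members and 0.40 in the other zinc-finger genes. Of the 140 other annotated genes between the first and the last member, 60 were tested, 3 (5%) were called higher and 0 lower by edgeR, with 1 lower at an unadjusted p under 0.05 and 0 lower by DESeq2, and their median log2FC was 0.02. All 3 were long non-coding RNA genes, ENSG00000267053 at LINC00665 being the first. The second, ZNF790-AS1 (chr19:36797501-36831596, + strand), antisense to ZNF790, was counted 2, 2 and 6 times in HAP1 against 27, 40 and 76 times in HELLS KO (log2FC 3.75, SE 0.45, adjusted p = 0.0068, edgeR), whereas ZNF790 had a log2FC of 0.11. The third, ENSG00000267605 (chr19:37235507-37304395, − strand), which overlaps exons of ZNF383 on the opposite strand, had 0 counts in every HAP1 library against 62, 49 and 232 in HELLS KO (adjusted p = 0.013, edgeR).

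The promoter windows were examined for what the called members share in sequence. RefSeq windows of 300 bases, 250 before the start and 50 after it, were matched for 32 of the 36 members, with none for ZNF30, ZFP14, ZNF571 and ZNF781. RefSeq gave 15 of these members more than 1 start, LINC00665 and ZNF829 among the called, and the window nearest to the GENCODE start was used for each. For some members even this start lay kilobases away, as at ZNF420 (chr19:37078222 against 37007857 in GENCODE) and ZNF573 (37779586 against 37817300). Among the called, this held for ZNF585B only (37210536 against 37218153). CpG numbers ranged from 15 to 37 with a median of 25 in the 5 called members, and from 12 to 35 with a median of 22 in the 27 others. Over 27305 RefSeq windows, the first listed for each gene, the median was 14. With every window of each member counted, the called members had 12 to 37 CpGs with a median of 20 (7 windows) and the others 9 to 35 with a median of 22 (47 windows), so the order of the medians turned. LINC00665 had 15 CpGs, ZNF585B 19, ZNF568 25, ZNF829 27 and ZFP82 37. The ranges of called and uncalled members overlapped almost entirely, so the number of CpGs did not separate them. The median GC content was 64.7% in the called, 61.7% in the uncalled and 58.3% in all windows.

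**Figure D3:**
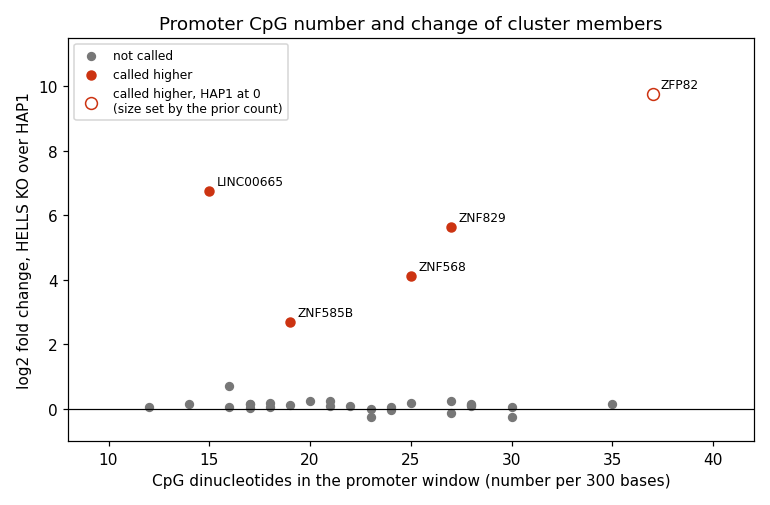
Log2 fold change of HELLS KO over HAP1 against the number of CpG dinucleotides in the 300-base RefSeq promoter window, 1 point per tested member with a window. The 5 called members, in red, spread from 15 to 37 CpGs, over nearly the same range as the uncalled members in grey, and ZFP82 (open circle, HAP1 at 0) has no defined size.

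Motifs were counted on both strands of each window as exact letter matches. The ETS-like motif CCGGAAG was found in 4 of the 5 called members (LINC00665, ZNF829, ZNF568 and ZNF585B), in 5 of the 27 others and in 10.7% of all windows. The windows of ZNF829 and ZNF568 overlap by 140 bases and share the match printed between their starts, so these are not separate occurrences. The NRF1 half-site TGCGCA was found in 4 of 5 (LINC00665, ZFP82, ZNF568 and ZNF585B), in 11 of 27 and in 8.4% of all windows. The YY1 core ATGGCG was found in 1 of 5, 3 of 27 and 11.0% of all windows, and the SP1 motif GGGCGG in 1 of 5, 12 of 27 and 44.6%. TATAAA was in none of the 32 windows and in 12.0% of all. With every window of each member searched, CCGGAAG was found in 4 of 5 called and 9 of 27 other members and TGCGCA in 5 of 5 and 13 of 27. A letter match does not show that a factor binds there.

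The printed sequences of ZNF585A and ZNF585B were aligned, since only ZNF585B was called. Of 230 aligned bases 186 (80.9%) were identical, 44 differed, and each sequence had 20 bases without a partner. ZNF585A has 16 CpGs in these 250 bases and ZNF585B 13, and 8 of them fall at the same aligned place in both. The TGCGCA match of ZNF585B starts at position 210 of its sequence and rests on the difference C196A, with the ZNF585A base first and the position counted from 1 at the 5′ end of the ZNF585A sequence.

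Because duplicated genes share sequence, the exons of each called member were searched for 31-base stretches that also occur in exons of other, non-overlapping genes. Such stretches made up 31.5% of LINC00665, 26.2% of ZNF585B, 10.9% of ZNF829, 9.04% of ZNF568 and 6.19% of ZFP82. For ZNF585B, 20.04% was shared with ZNF585A, whose level was 19.4 CPM in HAP1 and 19.9 in HELLS KO. For LINC00665, 17.0% was shared with LINC01535, a gene named here after its values were seen, which was counted 0, 0 and 1 times in HAP1 against 9, 5 and 8 times in HELLS KO. Exons of another counted gene on the same strand overlap 10.1% of the exon bases of ZNF585B, and exons of ZNF383, on the opposite strand, overlap 3.0%. The exon bases exceeded the length implied by the deposited FPKM for LINC00665 (12167 against 7199), ZNF568 (18608 against 9434) and ZFP82 (9214 against 7503). They were close to it for ZNF829 (7742 against 7739) and ZNF585B (7538 against 7536). For LINC00665, ZNF568 and ZFP82 the exons counted may therefore differ from those searched, and the shares may not hold for them. The shares are of sequence, not of counts, and the authors removed reads of low mapping quality before counting. How far the counts of LINC00665 and ZNF585B are affected was not measured.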

How the data were processed

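Total RNA of HAP1 and HELLS KO was made into stranded libraries by the authors, who read them as pairs, aligned them with STAR 2.7.3a to GRCh38 (GRCh38.p2 per the labels), removed duplicates and low mapping qualities, and counted genes with featureCounts 2.0.6. The deposited counts are raw. The deposited FPKM values, of 24956 genes, were recomputed from counts with DESeq2 size factors and gene lengths derived from those FPKM values themselves. With these lengths, 100% of the values lay within 0.1%. The check therefore covers the scaling between libraries, not the gene lengths or the levels between genes. The gene annotation and strand setting are not given in the sources used here.

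Genes were tested on deposited counts with edgeR 4.0.16 (R 4.3.3; filterByExpr by genotype, TMM, quasi-likelihood F test, no block), over 17925 genes and all 6 libraries, and the script was tested on simulated data. DESeq2 1.42.0 served as an alternative, as did the other normalization, no filter, a replicate block, a batch term, each library left out and replicates 1 and 2 alone. Standard errors are the log2 fold change divided by the square root of F. CPM values use TMM. Same-numbered libraries of the genotypes deviated together (correlations 0.416, 0.197 and 0.778), so by the rule used (every pair above 0.1) the numbers were taken to pair them. Crossed pairs of replicates 1 and 2 gave 0.591 and 0.330, so replicate 3 stood apart and numbers 1 and 2 were not matched better than crossed. No 2 libraries agreed within counting noise (chi-square per gene at least 2.34). A floor of 3 counts was 0.123 to 0.220 CPM in single libraries, for counting error only.

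The members and gene lists were chosen with earlier results of these data known. Named were called members, members bordering them, the 5 highest and lowest by FPKM, called genes of the interval and a few fixed background genes. ZNF793 and the pairs with close starts were also singled out after their values were seen, and the count over every promoter window was added after seeing the data. Of the gene rows, 56321 matched GENCODE 44. Proteins were not analysed here.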

Additional observations from a re-analysis of the deposited data

How the results depend on the processing

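With the replicate number as a block, 5 members were called higher and 0 lower and the median log2 fold change was 0.11, and the block changed no call. Over 12 alternatives, 4 to 6 members were called higher and 0 lower. Leaving out each library in turn gave 4 to 5 called higher, 0 lower and a median of -0.03 (without HELLS KO replicate 3) to 0.32 (without HAP1 replicate 3). ZNF585B was lost when either replicate 1 of HAP1 or replicate 2 of HELLS KO was left out (adjusted p = 0.055 each), and ZNF793 was gained in replicates 1 and 2 alone. The cause was not tested. Over all alternatives the log2 fold change was 6.49 to 7.15 for LINC00665, 5.17 to 6.51 for ZNF829, 3.87 to 4.37 for ZNF568, 2.21 to 2.99 for ZNF585B and 0.39 to 1.55 for ZNF793, and ZFP82 kept its call in each (edgeR or DESeq2, adjusted p at most 0.044). Over all genes, 269 were called higher and 129 lower, against 363 and 267 with the replicate block, 371 and 285 with the batch term, 415 and 200 with no filter, 426 and 244 with DESeq2, and 225 and 219 in replicates 1 and 2 alone. Leaving out 1 library gave 112 to 273 higher and 40 to 176 lower, the fewest without HELLS KO replicate 2. Members with few counts in HAP1 have ratios limited by those counts. The standard errors given are not a limit of detection, since larger differences also went uncalled with 3 libraries per genotype. ZNF793 had 0.72 (SE 0.51), and the fibroblast marker PDGFRA had -1.59 (SE 0.32, adjusted p = 0.061, edgeR). Changes of that order in uncalled members are therefore not excluded.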
